A study of Mus musculus with 113 samples.

Results

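The comparison described here set 8-cell (8C) mouse embryos against 4-cell (4C) embryos after combined knockdown of 4 nuclear receptors (4KD: Nr5a2, Rarg, Nr1h3 and Nr2c2), and asked which differences between the stages were present in the knockdown embryos. Its members are the 4 libraries of the 4KD groups, 2 at 4C and 2 at 8C, out of 113 samples in the series, 92 of them with an expression table. The 4 libraries from embryos given a negative control siRNA (NC), 2 at each stage, were handled by the same rule, and the 4KD and NC comparisons share no library. All embryos carried no engineered allele and came, per the study's methods, from superovulated C57BL/6N females mated with PWK/PhJ males. Zygotes received siRNA against the 4 receptors at 5 µM for each gene, or NC siRNA at 20 µM. In the single Nr5a2 knockdown experiment, whose 8C libraries are read later for values only, knockdown and NC siRNA were each at 5 µM. Each sample was a small pool of whole embryos, sequenced by Smart-seq2, a full-length cDNA method for very small amounts of RNA. In such a pool, fewer cells with a transcript and less transcript per cell cannot be told apart, and nothing in the labels states that replicates came from separate injection days, so the p-values given here measure only the spread between these samples.

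Nuclear receptors are transcription factors that bind short DNA elements built on the half-site AGGTCA, and many of them respond to small lipophilic ligands. NR5A2 binds as a monomer to an extended half-site and is active without an added ligand, RARG is a retinoic acid receptor, NR1H3 (LXRα) senses oxysterols and drives genes of lipid synthesis, and NR2C2 (TR4) is an orphan receptor. Between the 4C and 8C stages the mouse embryo, which has already activated its own genome, clears remaining oocyte transcripts and the transient transcripts of the 2-cell (2C) stage, and approaches compaction and the first choice between inner cell mass (ICM) and trophectoderm.

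Expression was given as FPKM, a fragment count corrected for how long the transcript is and how many fragments its library had. Differences between stages are on the scale log2(FPKM + 1), 8C minus 4C, which understates the difference of genes with low FPKM, and 10476 of 24006 genes had a mean FPKM of at least 1 in 1 or more of the 4 groups. The 8 libraries each held between 8606 and 8860 genes at 1 FPKM or more, their relative depth, read from the smallest FPKM steps, ranged from 0.673 to 1.39 of the median library, and the 10 most abundant genes took 9.42% to 12.2% of all FPKM. Pearson's r of log2(FPKM + 1) was 0.896 to 0.931 between the libraries of a group and 0.889 to 0.918 between 4KD libraries of the 2 stages. The embryo transcript Dppa3 reached 7673 FPKM. Of 18 cumulus and granulosa cell markers 17 stayed under 1 FPKM in the 4KD libraries, 13 of them at 0 throughout, and Amhr2 had 5.32 to 18.8 FPKM. Of 13 blood and immune markers 10 stayed under 1 FPKM, while Hba-a1, an alpha-globin gene, had 27.9 to 87.3 FPKM, Cd68 2.26 to 7.53 and Lyz1 at most 1.48. Of 8 oviduct markers 7 stayed under 1 FPKM (Ovgp1 reached 1.10), and of 10 sperm and testis markers 8 did, with Odf2 at 3.00 to 7.96 FPKM and Prm2 at most 1.69. The lists summed to 9.17 to 19.2 FPKM at 4C and 5.52 to 7.84 at 8C for cumulus, 42.0 to 70.9 and 32.3 to 89.6 for blood, and 3.00 to 7.54 and 3.73 to 10.3 for sperm and testis, and their part in the results was not tested.

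The targeted receptors were lower in 4KD than in NC embryos at both stages, with no overlap between the 2 libraries of each group, but the depth of the knockdown differed between genes and libraries. Nr5a2 (chr1:138740161-138857004, minus strand, mm9) had 3.98 and 17.6 FPKM in the 4KD libraries at 4C and 3.90 and 6.91 at 8C, against 26.8 and 31.7 at 4C and 27.1 and 30.3 at 8C in NC. One 4KD library at 4C (replicate 2) thus kept more Nr5a2 than the other 3, and the group means were 37.0% of NC at 4C and 18.8% at 8C. Nr1h3 (chr2:91024218-91042991, minus strand) showed the same order, with 1.61 and 8.35 FPKM at 4C and 1.45 and 1.11 at 8C in 4KD, or 26.7% and 9.96% of the NC means. Nr2c2 (chr6:92041384-92123051, plus strand) had 2.102 and 4.17 FPKM at 4C and 0.702 and 1.56 at 8C in 4KD, 21.3% and 20.8% of NC. In NC itself Nr2c2 was at 15.0 and 14.5 FPKM at 4C and 4.21 and 6.71 at 8C. Rarg (chr15:102065369-102087948, minus strand) was the least reduced, with 5.45 and 5.95 FPKM at 4C and 4.27 and 4.40 at 8C in 4KD, 48.6% and 35.4% of NC. Within 4KD embryos the log2 stage differences were -1.12 (Nr1h3), -0.94 (Nr2c2), -0.63 (Nr5a2) and -0.33 (Rarg), with limma adjusted p values of 0.72 to 0.92.

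**Figure D1:**
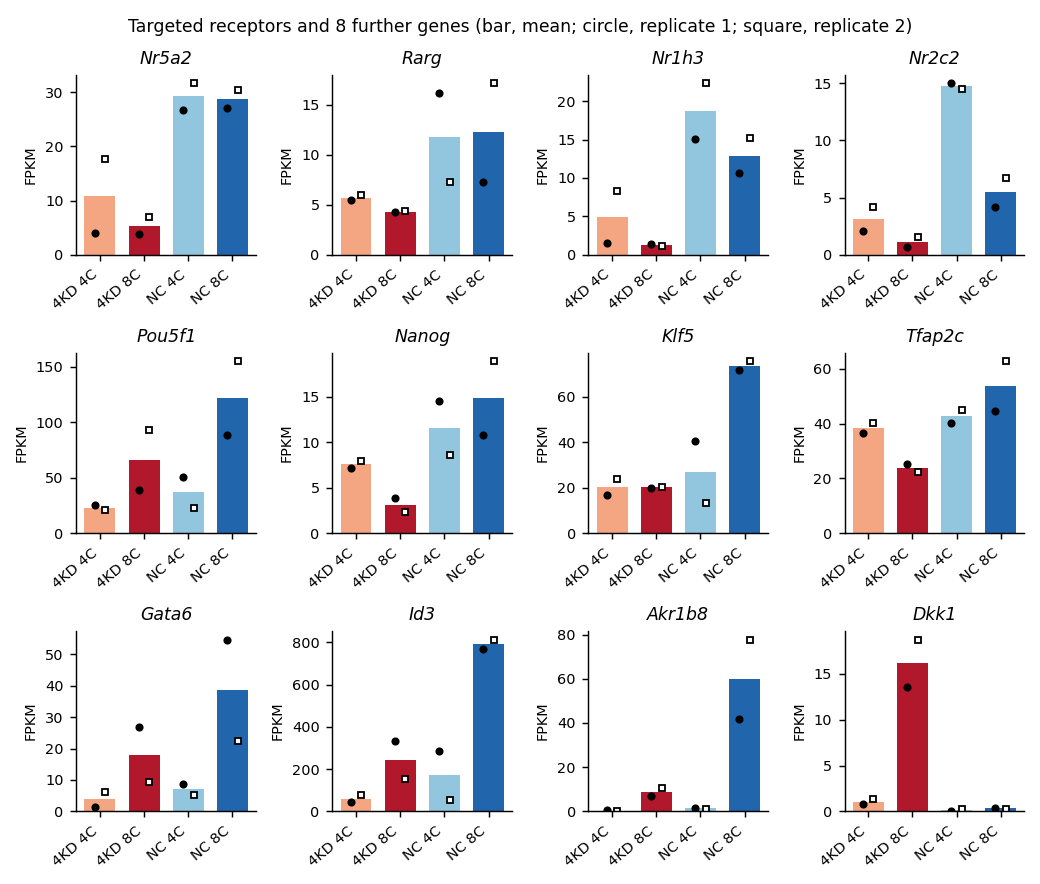
FPKM of the 4 targeted receptors and 8 further genes in 4KD embryos (reds) and NC embryos (blues) at 4C and 8C; bars are means of 2 libraries, circles replicate 1 and squares replicate 2, and the y axes start at 0. Klf5 lay at 16.6 to 24.0 FPKM in all 4 of the 4KD libraries and at 71.8 and 75.6 in NC at 8C, while Dkk1 passed 1.31 FPKM only in the 4KD libraries at 8C.

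No gene passed the study's threshold for the stage difference in 4KD embryos (adjusted p under 0.01 and 4-fold), and none passed an adjusted p of 0.05 in limma fitted over all 8 libraries. The smallest adjusted p was 0.280, shared by 18 genes, and 803 genes (7.67% of 10476) were under an unadjusted p of 0.05, 415 of them higher (3.96%) and 388 lower (3.7%) at 8C. In NC embryos the smallest adjusted p was 0.0504 and 776 genes (7.41%) were under an unadjusted 0.05, 350 higher (3.34%) and 426 lower (4.07%). With 2 libraries a group, an exact two-sided permutation test of a single gene cannot go under 0.333. The stage differences are therefore given as values in each library, and genes are counted when both 8C libraries lay on the same side of both 4C libraries with a 2-fold or larger difference of log2(FPKM + 1). By this count 630 genes (6.01%) were higher and 617 (5.89%) lower at 8C in 4KD embryos, and 555 (5.3%) were higher and 650 (6.2%) lower in NC embryos. These percentages are the background for every list below, and the median stage difference over all genes tested was -0.01 in 4KD and -0.01 in NC. In every list, a low gene that passed the expression filter through 1 group alone had to be higher in that group than in the others.

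The genes with the largest differences toward 8C in 4KD embryos were a mixed group. Dkk1, a secreted inhibitor of Wnt signalling (chr19:30620353-30624155, minus strand), had 0.753 and 1.31 FPKM at 4C and 13.6 and 18.8 at 8C, a log2 difference of 3.08 (SE 0.47, limma adjusted p = 0.280). In NC embryos it stayed between 0 and 0.395 FPKM at both stages, so the 2 high libraries were the 4KD libraries at 8C. Spp1, which encodes the secreted phosphoprotein osteopontin, was at 0.427 and 0 FPKM at 4C and 27.0 and 6.93 at 8C in 4KD, and at 2.87, 0, 0.669 and 0.875 in NC. Wfdc2, a secreted protease inhibitor of epithelia, was listed at 0 in both 4C libraries and at 8.13 and 6.56 FPKM at 8C, with no NC library above 1.70. For these 3 genes the 8C values in 4KD embryos were above every NC value.

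Some other genes of this group were higher at 8C in NC embryos too. Akr1b8, an aldo-keto reductase (chr6:34304119-34318463, plus strand), had 0.475 and 0 FPKM at 4C and 7.12 and 10.5 at 8C in 4KD embryos, against 1.59 and 1.13 at 4C and 41.6 and 77.8 at 8C in NC. It was the gene with the smallest p in NC, and its 4KD libraries at 8C stood above both 4C groups and below both NC libraries at 8C. Pnliprp2, a lipase-related protein, went from 2.28 and 1.31 to 22.2 and 21.5 FPKM in 4KD and from 7.01 and 2.27 to 15.5 and 9.13 in NC. Slc24a5, a potassium-dependent sodium-calcium exchanger, had 2.46 and 1.65 FPKM at 4C and 33.8 and 15.8 at 8C in 4KD. In NC it was already at 25.7 and 16.3 at 4C, with 31.8 and 43.4 at 8C, so 4KD and NC were apart at 4C and overlapped at 8C. Eif2s3y, a Y-linked translation factor, was not ordered by stage in NC, with 0 and 6.83 FPKM at 4C in 4KD and 26.4 to 31.2 at 4C in NC. It was at 37.2 and 38.2 in 4KD and 4.14 and 47.2 in NC at 8C, and the share of male embryos in a pool is not known. Tmem254c, Dap, Pusl1, AA467197, Gm5547, 2200002D01Rik and 1010001N08Rik also belonged to the 15, with log2 differences of 3.02 to 3.92. Tmem254c had the largest, with 0.028 and 0.051 FPKM at 4C and 16.1 and 13.4 at 8C in 4KD. Its NC libraries at 8C stood far apart, at 0.045 and 33.8 FPKM.

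Among the 15 genes with the largest differences toward 4C, several belonged to gene families with near-identical copies, whose reads the authors' counting could split (Gm6880, Gm10662, Gm9125, Gm7367, H2-Q9, B020004C17Rik and B020031M17Rik). Gm6880 had the largest difference, with 32.8 and 43.0 FPKM at 4C and 1.97 and 0 at 8C in 4KD, while the NC libraries held 13.3 and 69.0 at 4C and 24.6 and 16.5 at 8C. Fam212a, one of the genes the study listed as activated in late 2C embryos, was at 16.1 and 52.0 FPKM at 4C and 1.85 and 1.44 at 8C in 4KD. It showed the same order in NC, with 33.7 and 67.6 at 4C and 5.78 and 3.80 at 8C. Oosp1, an oocyte-secreted protein, had 8.06 and 37.2 FPKM at 4C and 6.00 and 0 at 8C in 4KD and 20.9, 88.3, 16.3 and 14.9 in NC. Calml4, a calmodulin-like protein, went from 53.6 and 35.2 to 11.03 and 2.91 FPKM in 4KD and from 69.5 and 43.8 to 23.3 and 14.3 in NC. Cd52, Chrna10, Amd2 and Rasl11a were the other 4 genes, with log2 differences of -3.32, -3.23, -2.98 and -2.77. The size for Amd2 came from a single library, with 58.6 and 0.315 FPKM at 4C and 0.022 and 0.224 at 8C in 4KD. Its NC libraries held 7.44 and 0.0975, then 1.94 and 61.2. Myc, the growth-promoting transcription factor, had 19.5 and 43.9 FPKM at 4C and 10.9 and 0.534 at 8C in 4KD embryos, while the 4 NC libraries stayed between 23.8 and 31.4 FPKM. The low value came from a single library, 4KD replicate 2 at 8C.

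**Figure D2:**
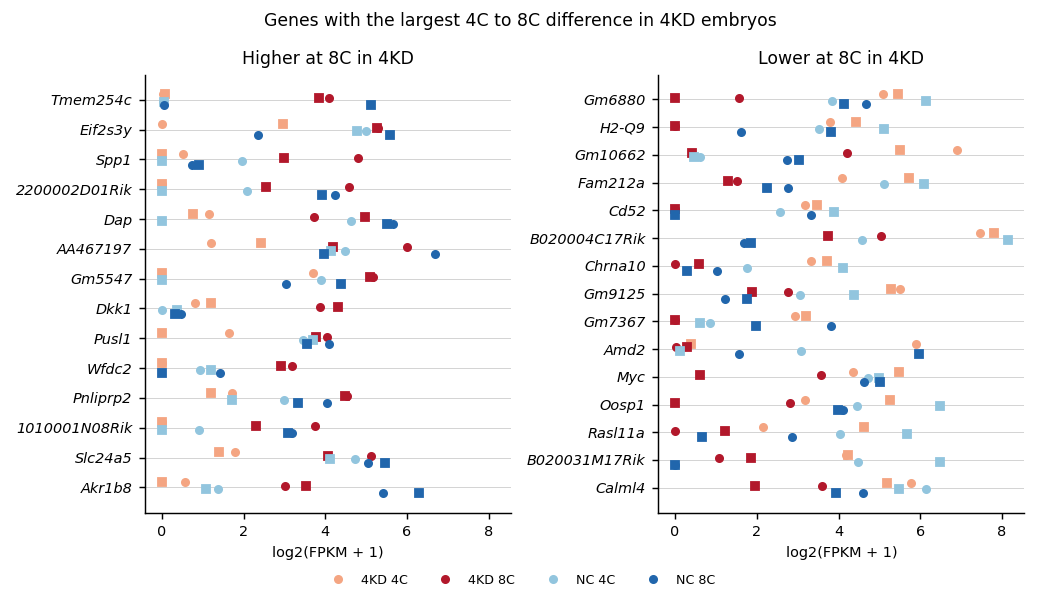
log2(FPKM + 1) in each library (x axis) for 14 of the 15 genes with the largest difference toward 8C (left) and the 15 toward 4C (right) in 4KD embryos, among genes whose 4KD stages do not overlap; reds are 4KD, blues NC, circles replicate 1 and squares replicate 2. The 2 stages of 4KD are apart in every row because the rule asked for it, while NC libraries follow the same order in Akr1b8 and Fam212a and not in Dkk1, Spp1 or Myc.

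The promoters of these genes, and of the 20 genes with the largest difference between 4KD and NC described below, were searched for the receptor half-site AGGTCA, for AAGGTCA and for the longer NR5A2 site TCAAGGTCA, on both strands (the longer letters contain the shorter). RefSeq promoter windows of 300 bases (250 before and 50 after a start, GRCm38.p6) were found for 25 of the 44 genes. AGGTCA was present for 6 of 25 genes (24.0%), against 18.1% of 27025 genes with a window, AAGGTCA for 1 (4.00%, against 5.38%) and TCAAGGTCA for the same gene, Gm5891 (4.00%, against 0.466%). The 250 bases upstream are printed for Wfdc2 and Oosp1, which differed toward 8C and toward 4C, with the match in capitals, and for Akr1b8, the gene with the smallest p in NC, where no match was found. In the order given they lie at chr2:164562466-164562715 (plus strand), chr19:11691052-11691301 (minus strand) and chr6:34353896-34354145 (plus strand) of GRCm38.p6. A match is a description of the letters and not a binding site.
Wfdc2: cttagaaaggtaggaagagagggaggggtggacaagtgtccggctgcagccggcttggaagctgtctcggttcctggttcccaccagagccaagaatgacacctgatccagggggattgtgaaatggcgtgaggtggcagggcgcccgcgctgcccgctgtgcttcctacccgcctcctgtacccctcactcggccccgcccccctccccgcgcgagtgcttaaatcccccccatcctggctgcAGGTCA
Oosp1: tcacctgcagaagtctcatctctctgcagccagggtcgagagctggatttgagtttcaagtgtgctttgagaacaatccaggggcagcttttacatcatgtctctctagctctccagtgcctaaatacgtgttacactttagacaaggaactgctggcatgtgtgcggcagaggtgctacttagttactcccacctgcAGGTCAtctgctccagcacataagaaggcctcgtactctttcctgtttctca
Akr1b8: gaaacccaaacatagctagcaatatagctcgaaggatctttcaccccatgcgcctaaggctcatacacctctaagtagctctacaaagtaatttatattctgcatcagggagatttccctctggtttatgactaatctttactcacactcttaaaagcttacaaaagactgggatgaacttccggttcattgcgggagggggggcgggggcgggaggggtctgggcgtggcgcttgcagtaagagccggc

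The study's list of genes activated at the 8C stage, defined on reference embryos that are not these libraries, was higher at 8C in 4KD embryos as a group. Of 46 genes 45 were in the files and all 45 were tested, with 34 positive and 10 negative stage differences and a median of 0.91 in 4KD against 1.21 in NC. The median of this list in a library had an SD of 0.36 within groups. From 4C replicate 1 to 8C replicate 2 the medians were 0.84 in 4KD and 0.49 in NC. From 4C replicate 2 to 8C replicate 1 they were 0.83 and 1.76, so the order of 4KD and NC differed between the library pairs. By the 2-fold count without overlap 16 of 45 (35.6%, background 6.01%) were higher and 0 lower in 4KD, and 15 were higher and 1 lower in NC. Genes higher in both embryo types numbered 8, that is, 8 of 16 in 4KD and 8 of 15 in NC. They included Tmem64, with 0.450 and 2.74 FPKM at 4C and 16.2 and 8.10 at 8C in 4KD, and BC048679, with 10.2 and 17.5, then 55.3 and 45.1. Apoa1, the main protein of high-density lipoprotein, was listed at 0 in both 4C libraries and had 2.03 and 9.55 FPKM at 8C in 4KD, and 0.569, 0, 8.46 and 9.75 in NC.

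The other counted members numbered 8 in 4KD and 7 in NC. Those in 4KD included Ddx3y, which is Y-linked like Eif2s3y, and the share of male embryos in a pool is not known. Gm5485 had 16.0 and 9.04 FPKM at 4C and 15.7 and 8.05 at 8C in 4KD, against 3.32 and 1.56, then 22.5 and 12.3, in NC. Its 4KD stages overlapped, with 4C values above those of NC. Hsd17b1, an enzyme of estrogen synthesis, was listed at 0 in all 4 of the 4KD libraries and had 9.54 and 5.28 FPKM at 8C in NC. 1500009L16Rik stood at 0 in both 4KD libraries at 8C and at 19.1 and 53.8 FPKM in NC. In the other direction Car4, a membrane carbonic anhydrase, had 5.72 and 3.29 FPKM at 4C and 27.5 and 35.4 at 8C in 4KD, while the 4 NC libraries held 1.49 to 7.20. The test of the difference between the stage differences gave no gene an adjusted p under 0.05 in limma, so none of these is shown to differ between 4KD and NC.

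Of 131 genes the study listed as activated in the ICM, only 42 passed the expression filter, and a low gene that passed through its 8C value alone had to be higher there. With that limit, 14 of the 42 (33.3%, background 6.01%) were 2-fold higher without overlap at 8C in 4KD and 0 lower, and 10 (23.8%, background 5.3%) were higher in NC. The 4KD median of 0.92 went to 0.29 with no filter, 1.67 with a mean FPKM of at least 5 and 2.31 with a pseudocount of 0.1. Il33, an alarmin cytokine, was listed at 0 in both 4KD libraries at 4C and at 3.30 and 4.01 FPKM at 8C. Nppb, a natriuretic peptide, was listed at 0 at 4C and had 0 and 1.13 FPKM at 8C in 4KD, against 5.86 and 29.6 at 8C in NC. Cpe, a carboxypeptidase of peptide hormone processing, had at most 0.623 FPKM in the 4KD libraries and 4.26 and 9.98 at 8C in NC. Zygote genes (43 tested, median 0.13) and 4C genes (15 tested, median 0.03) had no clear direction in 4KD. Among the 4C genes Prl3b1, a placental prolactin family hormone, had 0 and 6.87 FPKM at 8C in 4KD and 113 and 51.0 in NC, and S100a3, a calcium-binding protein, 6.45 and 1.30 against 63.9 and 41.4. Both were below the NC libraries at 4C as well, with 1.46 and 25.1 FPKM for Prl3b1 and 8.73 and 7.41 for S100a3.

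Transcripts of the 2C stage had mostly negative stage differences in 4KD embryos. Of 559 late 2C genes 534 were tested, with 322 negative and 208 positive stage differences in 4KD and medians of -0.20 in 4KD and -0.18 in NC. Of these, 56 were 2-fold lower (10.5%, background 5.89%) and 31 higher (5.81%, background 6.01%) in 4KD, and 23 of the 56 were among the 62 lower in NC. The early 2C genes had a median of -0.48 in 4KD and -1.01 in NC. Of 35 tested, 6 were lower in 4KD (17.1%, background 5.89%) and 14 in NC (40.0%, background 6.2%). The list of transient 2C genes, the short burst that accompanies genome activation, had medians of -0.52 in 4KD and -1.70 in NC. Of its 23 tested members 7 (30.4%, background 5.89%) were lower in 4KD and 14 (60.9%, background 6.2%) in NC. Only 35 of 42 early and 23 of 31 transient 2C genes in the files passed the expression filter. A low gene that passed through its 4C value alone had to be lower at 8C, which limits these shares. The medians differed between the library pairs in both embryo types. From 4C replicate 1 to 8C replicate 2 the 4KD medians were -0.02 for transient and -0.03 for early 2C genes, and from 4C replicate 2 to 8C replicate 1 -0.73 for both. The lists share members, and this -0.73 is the value of Gm5662 in both. The NC medians of the same pairs were -0.87 and -2.06 for transient and -0.68 and -1.67 for early 2C genes. All 7 of the transient 2C genes lower in 4KD were among the 14 in NC. Most of these genes lie in families of near-identical copies, so the reads of single members are uncertain.

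Single members of the transient group are given beside NC. Tcstv1 had 8.97 and 15.3 FPKM at 4C and 4.85 and 6.72 at 8C in 4KD, against 60.6 and 131 at 4C and 0 and 2.51 at 8C in NC. The 4KD values lay inside the range between the NC stages, with a difference of the stage differences of 4.67 (SE 0.95, unadjusted p = 0.00074, adjusted p = 1.00, limma). Tcstv3 had 9.60 and 16.4, then 1.19 and 3.76 FPKM in 4KD, and 47.4 and 131, then 4.97 and 7.37, in NC. Tdpoz5, a BTB domain protein, started at a like level, 80.9 and 49.7 in 4KD and 57.6 and 73.6 FPKM in NC at 4C. At 8C it was at 22.9 and 45.9 in 4KD and at 2.53 and 6.98 in NC. Tdpoz4 showed the same order, with 6.51 and 21.3 FPKM at 8C in 4KD and 0.906 and 1.19 in NC. Arg2, a mitochondrial arginase, had 127 and 107 FPKM at 4C and 26.8 and 57.8 at 8C in 4KD, against 40.2 and 56.6, then 10.4 and 8.78, in NC. Zscan4d and Pramel7, other genes of the burst, showed no separation of the stages in 4KD. Pramel7 did not separate in NC either, with 404 and 716 FPKM at 4C and 357 and 476 at 8C, and Zscan4d was not among the 14 counted as lower in NC.

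The 41 tested oocyte-deposited maternal genes were mostly at lower values at 8C in 4KD embryos, with 30 negative and 11 positive differences, a median of -0.67 in 4KD and -0.48 in NC. These 41 were the genes of 51 in the files that passed the expression filter, and a low gene that passed through its 4C value alone had to be lower at 8C. With that limit, 11 of 41 (26.8%, background 5.89%) were 2-fold lower without overlap and 1 higher in 4KD. Of these 11, 6 were among the 9 lower in NC. Gdf9, an oocyte growth factor, had 6.43 and 5.00 FPKM at 4C and 1.45 and 2.22 at 8C in 4KD, and 3.25, 9.61, 1.01 and 1.97 in NC. Nlrp5, a component of the subcortical maternal complex, was at 3.06 and 1.89, then 0.469 and 0.888 FPKM in 4KD. Omt2b had 29.1 and 175 FPKM at 4C and 25.4 and 16.7 at 8C in 4KD. Khdc3, another member of that complex, was the exception, with 0 and 5.41 FPKM at 4C and 8.37 and 10.0 at 8C in 4KD, far below its 117 and 297 at 8C in NC. Dppa3, which protects the maternal genome from demethylation, was high in all libraries, at 6771 and 5859 FPKM at 4C and 5997 and 7673 at 8C in 4KD.

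The pluripotency genes had different medians in the 2 embryo types, but the sign of the 4KD median is uncertain. The median of this list in a library had an SD of 0.16 within groups, more than the size of the 4KD median. Without 4KD replicate 1 at 4C the 4KD median was -0.43, and the NC medians of the 2 library pairs were 0.26 and 1.00. Of 29 genes 26 were tested, and the median stage difference was -0.11 in 4KD and 0.85 in NC, with 12 positive and 14 negative in 4KD. In 4KD, 5 of 26 were 2-fold higher (19.2%, background 6.01%) and 5 lower (19.2%, background 5.89%) without overlap. In NC 7 were higher (26.9%, background 5.3%) and 2 lower (7.69%, background 6.2%). All 5 higher in 4KD were among the 7 in NC: Pou5f1, Tbx3, Tfcp2l1, Utf1 and Zfp42. Pou5f1 (Oct4, chr17:35642982-35647721, plus strand) had 25.4 and 20.8 FPKM at 4C and 38.5 and 93.3 at 8C in 4KD, a log2 difference of 1.35, against 50.7 and 22.9, then 88.5 and 155, in NC. Utf1, a chromatin protein of pluripotent cells, had 2.201 and 14.2, then 44.5 and 28.2 FPKM in 4KD and 14.3 and 4.58, then 34.4 and 29.3, in NC, so its 8C values overlapped between the embryo types. Zfp42 (Rex1) had 11.6 and 16.2, then 35.9 and 37.9 FPKM in 4KD.

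Nanog, Klf4 and Myc were among the 5 lower in 4KD. Nanog (chr6:122657507-122664651, plus strand), a core pluripotency factor, had 7.15 and 7.92 FPKM at 4C and 3.83 and 2.34 at 8C in 4KD, a difference of -1.09 (limma adjusted p = 0.68). In NC it had 14.6 and 8.56 at 4C and 10.8 and 18.9 at 8C, so the NC stages overlapped. Klf5, a Kruppel-like factor of ICM and trophectoderm, was at 16.6 and 24.0 FPKM at 4C and 19.9 and 20.3 at 8C in 4KD, a difference of 0.01. In NC it had 40.6 and 13.4 at 4C and 71.8 and 75.6 at 8C, a difference of 1.61. Klf4 had 2.68 and 6.19, then 1.08 and 1.23 FPKM in 4KD and 2.56 and 3.00, then 17.4 and 2.19, in NC, where replicate 1 at 8C alone was high. Tdgf1 (Cripto), a Nodal co-receptor, spread from 1.35 to 10.3 FPKM in 4KD and from 5.35 to 162 in NC. Esrrb lay between 6.43 and 11.8 and Sall4 between 40.6 and 72.0 FPKM in 4KD, with overlapping stages and differences of 0.20 and 0.38. Sox2 was listed at 0 in all 4 of the 4KD libraries. Fgf4, a growth factor of the early lineages, had 7.35 and 9.65, then 2.17 and 1.64 FPKM in 4KD and 6.35 and 12.9, then 1.41 and 1.65, in NC.

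**Figure D3:**
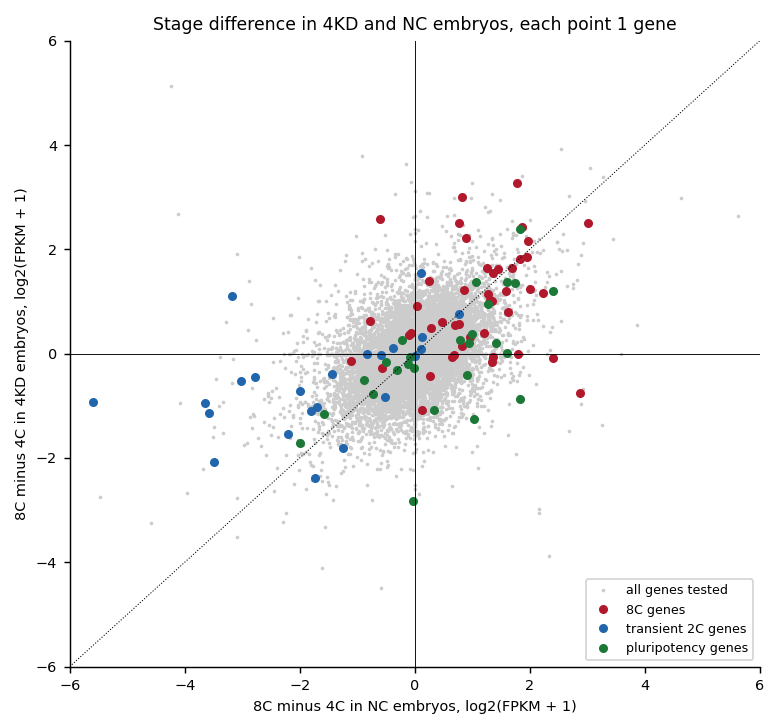
Stage difference, 8C minus 4C in log2(FPKM + 1), in NC embryos (x axis) and 4KD embryos (y axis) for the 10476 genes tested, with the study's 8C genes, the transient 2C genes and the pluripotency genes in colour; 1 gene lies beyond the axes. The 8C genes lie mostly above 0 on both axes, the transient 2C genes lie mostly to the left of 0 and above the dotted line of equal difference, and Pearson's r over all genes is 0.444.

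The trophectoderm list had a median of 0.21 in 4KD and 0.36 in NC, with 6 of 22 tested genes 2-fold higher (27.3%, background 6.01%) and 2 lower in 4KD, and 1 of the 6 among the 4 higher in NC. The median of this list in a library had an SD of 0.24 within groups, more than the 4KD median. The medians of the 2 library pairs were 0.06 and 0.17 in 4KD and 0.30 and 0.71 in NC. With only the 4KD groups in the fit the 4KD median was 0.50. The 6 genes higher in 4KD included the epithelial keratins Krt8, Krt18 and Krt19. Krt18 had 4.35 and 1.501 FPKM at 4C and 17.0 and 45.8 at 8C in 4KD, against 21.7 and 5.19, then 8.85 and 35.6, in NC. Krt8, its partner in the epithelial filament, had 8.19 and 6.39, then 14.02 and 39.1 FPKM in 4KD and 3.24 and 0, then 2.52 and 28.3, in NC. Ly6a, a surface antigen, was higher in both, with 41.7 and 86.5, then 402 and 321 FPKM in 4KD and 96.3 and 75.2, then 315 and 376, in NC. Wwtr1 (TAZ), a Hippo pathway coactivator, had 24.2 and 21.2, then 49.2 and 51.0 FPKM in 4KD. Its partner Tead4 overlapped between stages in 4KD, with 23.1 to 34.9 FPKM. Tfap2c had 36.5 and 40.2, then 25.3 and 22.3 FPKM in 4KD and 40.3 and 44.9, then 44.4 and 62.8, in NC. Gata3 was at 2.89 FPKM or less in 4KD and at 3.18 and 5.34 at 8C in NC.

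Genes of compaction, junctions and cell polarity gave different counts in the 2 embryo types. Of 31 tested, 1 was 2-fold higher (3.23%, background 6.01%) and 2 lower at 8C in 4KD, against 7 higher (22.6%, background 5.3%) and 0 lower in NC, with medians of 0.10 and 0.23 and no gene in common. The 4KD median was -0.18 without 4KD replicate 2 at 4C. Cldn4, a tight junction claudin, had 3.84 and 6.08 FPKM at 4C and 7.70 and 8.48 at 8C in 4KD, and 6.19 and 5.36, then 63.3 and 23.2, in NC. Its stages did not overlap in either, and the difference was 0.63 in 4KD and 2.55 in NC (unadjusted p of the difference 0.034, limma). Cdh1 (E-cadherin), the adhesion molecule of compaction, had 10.1 and 4.37, then 9.78 and 11.5 FPKM in 4KD and 7.68 and 2.59, then 12.3 and 14.3, in NC. Cldn7 showed the same order in both, at 39.1 and 77.1, then 113 and 104 FPKM in 4KD. Cldn6 went the other way in 4KD, with 38.6 and 74.2, then 24.5 and 10.6 FPKM.

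Primitive endoderm and FGF genes had a median of 0.34 in 4KD and 0.35 in NC. In 4KD 4 of 15 tested genes were 2-fold higher (26.7%, background 6.01%) and 2 lower (13.3%, background 5.89%). Of 27 genes in the files only these 15 passed the expression filter, and a low gene that passed through its 8C value alone had to be higher there. The 4KD median was 0.87 without 4KD replicate 1 at 4C and -0.15 without replicate 2 at 4C. Gata6, the endoderm factor, had 1.52 and 6.17 FPKM at 4C and 26.9 and 9.31 at 8C in 4KD, against 8.86 and 5.08, then 54.7 and 22.5, in NC, with differences of 1.99 and 2.23. Pdgfra, an endoderm receptor, was at 0.158 and 0.137, then 2.39 and 1.53 FPKM in 4KD. Fgfr1 and Fgfr2 overlapped between stages in 4KD. Among Id, BMP and SMAD genes, Id3 and Gdf3 were the 2 higher in 4KD and the same 2 in NC. Id3, an inhibitor of helix-loop-helix factors, had 42.1 and 75.9 FPKM at 4C and 331 and 155 at 8C in 4KD, against 287 and 54.2, then 767 and 814, in NC. Gdf3, a TGF-beta family ligand, had 0.268 and 0.930, then 17.0 and 6.79 FPKM in 4KD and 0.904 and 2.57, then 23.6 and 15.7, in NC, with differences of 2.92 and 2.96. Satb1, a chromatin organizer, had 0.252 and 1.76, then 6.24 and 4.03 FPKM in 4KD and 6.61 and 2.13, then 13.3 and 11.6, in NC.

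Genes of energy metabolism had mostly positive stage differences in 4KD embryos, small per gene. Of 91 oxidative phosphorylation genes tested, 78 had a positive difference in 4KD, with a median of 0.54 (0.33 in NC), and 11 (12.1%, background 6.01%) were 2-fold higher and 0 lower, against 3 and 1 in NC. The median of this list in a library had an SD of 0.34 within groups. Atp5d, an ATP synthase subunit, had 48.6 and 63.1 FPKM at 4C and 144 and 263 at 8C in 4KD and 103 and 123, then 214 and 241, in NC. Ndufb8, a complex I subunit, had 110 and 127, then 390 and 276 FPKM in 4KD. Glycolysis, pyruvate and TCA cycle genes had 34 of 45 positive, a median of 0.36 (0.23 in NC) and 8 of 45 (17.8%, background 6.01%) 2-fold higher in 4KD. Suclg2, a succinyl-CoA ligase subunit, had 3.47 and 4.65, then 15.2 and 15.3 FPKM in 4KD and 7.98 and 5.87, then 15.9 and 17.1, in NC. Ldha, lactate dehydrogenase A, was the only gene of the list that went in opposite directions past 2-fold: 14.9 and 20.8 at 4C and 29.8 and 79.0 FPKM at 8C in 4KD, against 26.0 and 25.9, then 4.57 and 10.8, in NC. The difference between the 2 was 3.15 (SE 0.80, unadjusted p = 0.0032, adjusted p = 1.00, limma).

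Of 81 cytosolic ribosomal protein genes 72 had a positive difference in 4KD, with a median of 0.48 (0.40 in NC) and 2 of them (2.47%, background 6.01%) 2-fold higher. The median of this list in a library had an SD of 0.41 within groups. Proteasome genes had a median of 0.24 (0.16 in NC), and Psma7, a core subunit, had 396 and 495, then 1069 and 796 FPKM in 4KD. Nucleolar and ribosome assembly genes lay on the other side, with 32 of 45 negative and medians of -0.22 in 4KD and -0.21 in NC. Heat shock genes had 6 of 19 tested 2-fold higher (31.6%, background 6.01%) and 2 lower (10.5%, background 5.89%) in 4KD. Their 4KD median was 0.52, but 0.010 without 4KD replicate 2 at 4C and -0.028 without 4KD replicate 2 at 8C. Hspe1, a mitochondrial chaperonin, had 3.89 and 23.2, then 40.3 and 51.8 FPKM in 4KD and 46.1 to 65.7 in all 4 NC libraries, and Hspa5, the chaperone of the endoplasmic reticulum, was lower at 8C in both, with 240 and 172, then 70.5 and 96.9 FPKM in 4KD.

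**Figure D4:**
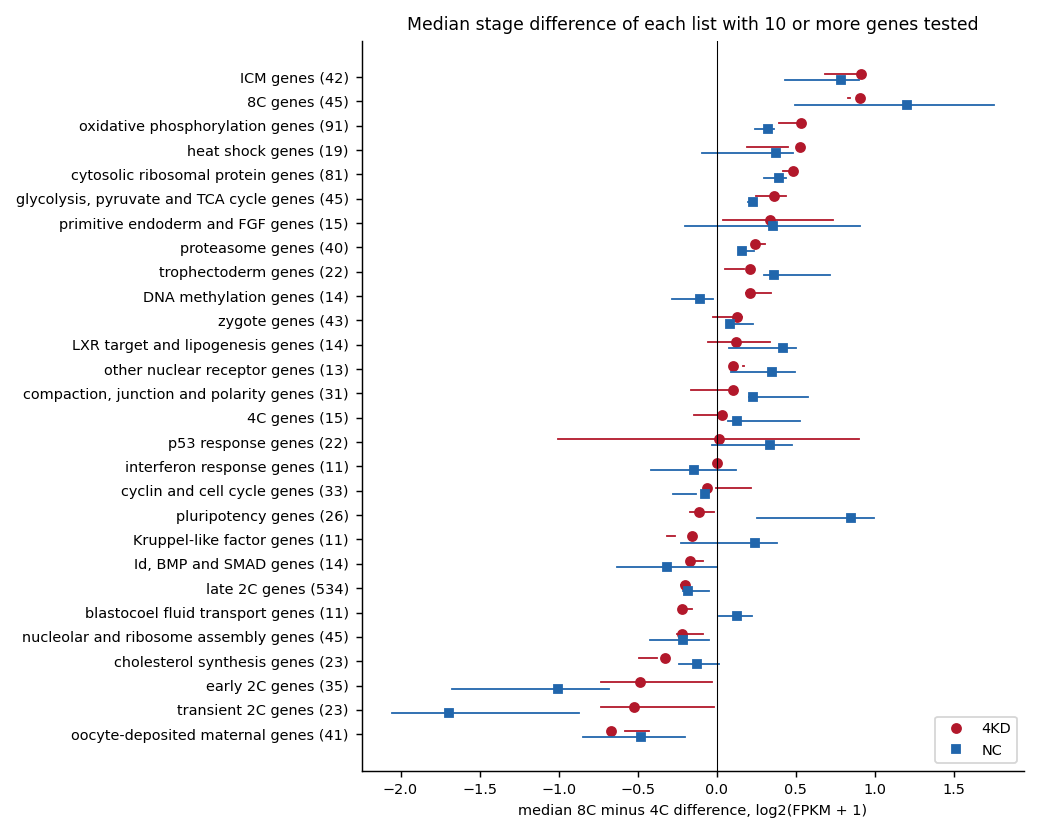
Median 8C minus 4C difference, in log2(FPKM + 1), of each list with 10 or more genes tested (number in brackets), for 4KD (red circles) and NC embryos (blue squares); lines join the medians from 4C replicate 1 with 8C replicate 2 and from 4C replicate 2 with 8C replicate 1. The 8C genes lie at 0.91 in 4KD, the pluripotency genes at -0.11 in 4KD and 0.85 in NC, and the line of the p53 response genes in 4KD runs from -1.01 to 0.90.

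The pathways of the targeted receptors themselves had few genes above the filter. Retinoic acid genes had 8 of 24 tested, with Rarb, a direct retinoic acid target, at 0.357 and 0 FPKM at 4C and 5.67 and 4.51 at 8C in 4KD, and at 5.88 and 0, then 2.26 and 8.60, in NC. Rdh11, a retinal reductase, was lower at 8C in both, with 6.42 and 7.83, then 1.13 and 1.74 FPKM in 4KD. The LXR target and lipogenesis list had 14 of 23 tested and a median of 0.13 in 4KD and 0.42 in NC. The median of this list in a library had an SD of 0.28 within groups. The medians of the 2 library pairs were -0.05 and 0.33 in 4KD and 0.08 and 0.50 in NC, so the sign in 4KD is uncertain. In 4KD 2 of 14 genes (14.3%, background 6.01%) were 2-fold higher, and in NC 1 (7.14%, background 5.3%). Fasn, fatty acid synthase, had 3.29 and 2.24, then 8.57 and 10.1 FPKM in 4KD and 3.08 and 1.52, then 4.71 and 3.58, in NC. Scd2, a desaturase, had 0.670 and 0.666, then 4.64 and 3.28 FPKM in 4KD and 0.323 and 1.15, then 2.42 and 1.86, in NC. Of 13 other nuclear receptor genes tested, only Rarb was 2-fold higher and none lower in 4KD. Cholesterol synthesis genes had 16 of 23 negative in 4KD, with a median of -0.33 (-0.13 in NC). The Obox genes, homeobox factors of early embryos, were led by Obox6, with 976 and 2056 FPKM at 4C and 1224 and 1303 at 8C in 4KD. Of the Kruppel-like factors, Klf17 had 208 and 131, then 87.5 and 145 FPKM in 4KD and 130 and 127, then 35.7 and 38.6, in NC, so that its stages overlapped in 4KD alone.

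In the remaining lists the 4KD medians were -0.06 for cyclin and cell cycle genes, 0.21 for DNA methylation genes, -0.22 for blastocoel fluid transport genes, -0.17 for the Id, BMP and SMAD list, 0.10 for other nuclear receptor genes, -0.15 for Kruppel-like factor genes and 0.02 for p53 response genes. In the p53 list the replicates at 4C stood apart in both embryo types: Plk2, a stress-responsive kinase, had 143 and 2.04 FPKM in 4KD and 34.9 and 3.05 FPKM in NC at 4C. Ccng1, a p53 target cyclin, had 55.8 and 1.07 FPKM at 4C and 32.8 and 61.2 at 8C in 4KD. The list median of a library had an SD of 0.94 within groups, and its 4KD stage difference was -1.01 from 4C replicate 1 to 8C replicate 2 and 0.90 from 4C replicate 2 to 8C replicate 1. Of the interferon response genes, Ifitm2 and Ifitm3 were higher at 8C in both embryo types, Ifitm2 with 161 and 68.0, then 414 and 398 FPKM in 4KD.

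Read across genes, the stage difference in 4KD embryos resembled that in NC embryos in part. Pearson's r over the 10476 genes was 0.444 and Spearman's rho 0.440, a description across genes, which are not independent replicates. Libraries with the same number at a stage deviated together in 4KD and NC (r of 0.336 to 0.346 of their deviations from the group means), and the part of this in the r across embryo types was not tested. Between libraries of different numbers, the r of the 4KD with the NC difference was 0.192 and 0.292. The r between the 2 library pairs within 4KD was 0.254 and within NC 0.294. Of the 555 genes 2-fold higher at 8C in NC, 438 had a positive difference in 4KD, with a median of 0.64 against 1.32 in NC where they were chosen, and 153 (27.6%, background 6.01%) were 2-fold higher in 4KD and 9 lower. Of the 650 genes lower in NC, 515 were negative in 4KD with a median of -0.63, and 182 (28.0%, background 5.89%) were 2-fold lower. Read the other way, 499 of the 630 genes higher in 4KD were positive in NC with a median of 0.65, and 153 (24.3%, background 5.3%) were 2-fold higher there. Of the 617 genes lower in 4KD, 182 (29.5%, background 6.2%) were 2-fold lower in NC.

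No gene differed between the 4KD and NC stage differences at an adjusted p of 0.05 in limma, where all adjusted p values were 1.00, and 259 genes (2.47%) were under an unadjusted 0.05, 154 (1.47%) with a higher and 105 (1%) with a lower difference in 4KD. By the fixed rule, the largest in each direction included genes of repeated families and small RNAs. Gm7367 had 6.61 and 8.21, then 0.00643 and 0.00644 FPKM in 4KD and 0.809 and 0.538, then 13.2 and 2.97, in NC. Gm10662 had 118 and 44.0, then 17.5 and 0.342 FPKM in 4KD and 0.531 and 0.380, then 5.65 and 7.13, in NC. Duxbl1, a double homeobox gene, was at 1.40 FPKM or less in all 4KD libraries, and at 9.57 and 7.93 at 4C and 0.00527 or less at 8C in NC. Abhd11os, an antisense transcript, was at 0 in both 4KD libraries at 8C and at 27.6 and 20.8 FPKM in NC. The counting is not stated to use strand, so its reads cannot be told apart from those of the gene on the other strand. The small nucleolar RNAs Snora78 and Snora81 were at 1821 and 1226 FPKM in 4KD replicate 1 at 8C and listed at 0 in the other 3 4KD libraries. In NC Snora78 had 0 and 0 FPKM at 4C and 1955 and 4501 at 8C, so its stage difference was lower in 4KD. Snora81 had 354 and 0, then 0 and 0, in NC, so its stage difference was higher in 4KD. FPKM of such short RNAs is uncertain.

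The 8C libraries of the single Nr5a2 knockdown experiment, with their own NC, were read beside these values, with no test. Akr1b8 was at 0 in both Nr5a2 knockdown libraries and at 17.6 and 43.2 FPKM in their NC. Klf5 was at 46.7 and 26.3 against 327 and 247, and Id3 at 13.9 and 55.0 against 532 and 683. Nanog was at 1.04 and 1.09 against 15.2 and 19.4, and Pou5f1 at 47.8 and 46.0 against 138 and 167 FPKM. Dkk1 had 4.10 and 0.956 FPKM in the Nr5a2 knockdown libraries and 0 in both NC libraries. Spp1 had 13.3 and 0 FPKM against 0 and 0.707, and Wfdc2 1.56 and 2.27 against 3.64 and 3.83, the other side of NC from the 4KD libraries at 8C. For Akr1b8, Klf5, Id3, Nanog and Dkk1 the 4KD libraries at 8C lay on the same side of NC as here, and for Pou5f1 they overlapped with NC.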

How the data were processed

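The data were the gene tables of the 4KD and NC embryos at the 4C and 8C stages (8 libraries), and of the single Nr5a2 knockdown experiment at 8C for values only. Per the study's methods, the authors mapped paired-end Smart-seq2 reads to mm9 with TopHat and computed FPKM per gene with Cufflinks on refFlat genes, and the deposited FPKM values carry no counts. The submitters' processing notes name CASAVA 1.8, Bowtie2 2.2.2, MACS 1.4.2 and bedtools 2.29.0 for the series. The study used a count model at an adjusted p of 0.01 and 4-fold, which FPKM does not allow. Here limma 3.58.1 (R 4.3.3) was fitted instead to log2(FPKM + 1) of all 8 libraries, with no covariate, a mean-variance trend and 4 residual degrees of freedom. Benjamini-Hochberg adjustment was over the 10476 genes whose group mean reached 1 FPKM in any group. The fit was also run on simulated data with independent noise in each library. That simulation left out the shared deviations between libraries described above, so it does not show how the fit behaves with them. Depth is unknown in reads, and relative depth was read from FPKM values under 0.5. Intervals need read counts and were not given.

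Named genes were the 4 targets, the 15 largest stage differences in each direction in 4KD embryos among genes whose stages do not overlap and with a mean of at least 5 FPKM, up to 10 genes in each direction for the difference between 4KD and NC, up to 4 of the most abundant genes in each list, and the lineage genes the study names. A listed gene named outside this rule was picked after its values were seen. There were 34 lists, 6 of them the study's stage lists, of which gene names alone were used. Members and lists were chosen with earlier results of these data known. Positions are from GENCODE M1 on the mm9 assembly, and promoters from RefSeq GRCm38.p6. Replicate numbers in the labels were checked for pairing: with the same number, 4C and 8C libraries of 4KD deviated in opposite directions (r = -0.297). With 2 libraries a group this means that libraries of crossed numbers deviated together, so the check does not show the libraries to be unpaired. The main fit was set without a block, and blocks by either numbering were run as alternatives. The deposited column names number the 8C libraries otherwise: those titled replicate 2 carry a 1, and their library numbers (759 and 760) follow those of 4C replicate 1 (757 and 758). Alternatives were other pseudocounts, filters, scalings, blocks and sample sets. Values of 2 genes that the rule names are not reported here.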

Additional observations from a re-analysis of the deposited data

How the results depend on the processing

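With 2 libraries a group, limma gave 0 genes for the 4KD stage difference at an adjusted p of 0.05 in the main fit, with 803 at an unadjusted p under 0.05, and 0 under each other pseudocount, filter, scaling, trend and block tried and with only the 4KD groups in the fit. Leaving out 1 library gave 0 to 3 genes, with the 3 without 4KD replicate 2 at 8C, where the lone sample is assumed to vary like the others. At an adjusted p of 0.01 and 4-fold, and for the difference between 4KD and NC, the count was 0 in every setting run. In NC the count was 2 with a pseudocount of 0.1, 3 with a mean FPKM of at least 5, 3 with only the NC groups and 0 to 1 without 1 library. The replicate block gave 1 gene in NC and 0 in 4KD. Numbers crossed between the stages, as the column names give them and the deviations hint (chosen after seeing the data), gave 7 in NC, 0 in 4KD at an adjusted p of 0.05 and 1454 at an unadjusted 0.05. Genes 2-fold higher without overlap in 4KD numbered 963 with a pseudocount of 0.1 and 1070 to 1162 without 1 library, and 2-fold lower 977 and 885 to 1335, since 1 library overlaps less often than 2. Lower outnumbered higher without a 4C library (1091 and 1087 higher, 1232 and 1335 lower), and higher outnumbered lower without an 8C library (1070 and 1162 higher, 885 and 1036 lower). The r across genes was 0.333 with a pseudocount of 0.1, 0.525 with a mean FPKM of at least 5, 0.311 to 0.417 without 1 library, and 0.257 and 0.363 with 4C replicate 1 and 8C replicate 2, or 4C replicate 2 and 8C replicate 1, alone (added after seeing the data). Of 396 list medians under alternatives 354 moved by no more than the SD of a library median, and 31 in 17 of 33 lists had the other sign. Among those that moved further, 4C genes had -0.56 with a mean FPKM of at least 5, and cyclin genes 0.22 and p53 genes -1.01 with 4C replicate 1 and 8C replicate 2 alone. The medians without 1 library ran from -0.44 to 0.15 for blastocoel fluid transport (0.15 without 4KD replicate 1 at 8C), from -0.49 to 0.22 for cholesterol synthesis (0.22 without 4KD replicate 1 at 4C) and from -0.028 to 0.59 for heat shock genes (-0.028 without 4KD replicate 2 at 8C). DNA methylation genes had -0.000307 without a filter and -0.073 with a mean FPKM of at least 5, and cumulus markers 0.066 without a filter. The causes were not tested.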

Other observations

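The zygote gene Cstb, a cysteine protease inhibitor, had 997 and 393 FPKM at 4C and 1911 and 1801 at 8C in 4KD embryos, and 555 and 134, then 804 and 530, in NC. Crip1, a small LIM domain protein among the late 2C genes, had 380 and 594, then 837 and 388 FPKM in 4KD and 54.4 and 88.0, then 125 and 42.2, in NC, so that it was higher in all 4KD libraries at both stages with overlapping stages within each. The metallothionein genes Mt1 and Mt2, metal-binding proteins that the study lists among early 2C genes, ran against their list, with Mt1 at 1690 and 3694 FPKM at 4C and 6795 and 4201 at 8C in 4KD and at 3042 and 2778, then 9840 and 6054, in NC.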
